A study of Mus musculus with 24 samples.

Results

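The mitochondrially encoded genes are the genes that mouse mitochondrial DNA carries, taken here as every gene whose name starts with mt- in the deposited tables. The rule found 37 genes among 46078 in the table of PR-DUB and KDM6B embryos, the same number among 46078 in the table of Eed embryos, and the same number among 55573 in the table of MII oocytes and late 2-cell embryos. They are 13 mRNA genes, 2 rRNA genes and 22 tRNA genes, and no expression value was used to choose them. Low-input RNA-seq of pooled mouse embryos and oocytes gave 24 libraries, in 12 groups of 2. The series asks how H2AK119ub and H3K27me3, a pair of Polycomb histone marks, behave in preimplantation embryos.

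The PR-DUB and the KDM6B experiment each had control (CTR) and overexpression (OE) embryos at the 2-cell and the 4-cell stage, and all 8 of these groups came from wild-type crosses of B6/DBA x PWK. PR-DUB is a deubiquitinase complex that acts on H2AK119ub, and KDM6B is a demethylase of H3K27me3. The Eed experiment had CTR and maternal knockout (matKO) 4-cell embryos from crosses of B6/129mixed x PWK, in which the first parent was Eed CTR or Eed CKO and the second wild type; EED is a core subunit of the complex that writes H3K27me3. The MII oocytes were wild type from B6/DBA females, and the late 2-cell embryos were wild type with B6/DBA on both sides of the cross. Each PR-DUB 2-cell library pooled 15 embryos, each PR-DUB 4-cell library pooled 19 (CTR) or 16 (OE), and each KDM6B 2-cell library pooled 17 or 18. The sources used here do not say what control embryos received. Nothing in the labels tells if paired libraries are separate collections, and p-values therefore measure the spread between these libraries, which may be technical. For the KDM6B OE 2-cell libraries the title names KDM6B and another label names PR-DUB, and the title was followed; the Eed knockout libraries carry OE in their titles and matKO in that other label, which was followed.

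Mammalian mitochondrial DNA is a small circle that is transcribed from both strands into long precursors by a dedicated polymerase. The tRNA genes lie between most of the mRNA and rRNA genes, and cutting them out at both ends releases the mature RNAs; a shorter precursor made with the help of a termination factor carries the rRNA genes. The mRNAs encode core subunits of the respiratory chain and of ATP synthase, the rRNAs and tRNAs serve their translation inside the organelle, and the embryo receives its mitochondria from the oocyte.

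The tRNA genes shown first are those the stage and OE results turn on. Sequences are from GENCODE vM21 on GRCm38 (mm10), written 5′ to 3′ on the gene's own strand, and the capitals mark the anticodon. The valine tRNA gene mt-Tv (chrM:1025-1093, plus strand) lies between the 2 rRNA genes, and mt-Tf for phenylalanine (chrM:1-68, plus strand) lies before the first of them. The leucine tRNA gene mt-Tl1 (chrM:2676-2750, plus strand) follows the second rRNA gene, and the methionine gene mt-Tm (chrM:3845-3913, plus strand) precedes mt-Nd2. The genes mt-Tp for proline (chrM:15356-15422) and mt-Te for glutamate (chrM:14071-14139) are read from the minus strand. The histidine gene mt-Th (chrM:11546-11612, plus strand) lies after mt-Nd4.
mt-Tv: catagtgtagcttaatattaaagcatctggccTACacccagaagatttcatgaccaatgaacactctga
mt-Tf: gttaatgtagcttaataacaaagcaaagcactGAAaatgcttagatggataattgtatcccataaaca
mt-Tl1: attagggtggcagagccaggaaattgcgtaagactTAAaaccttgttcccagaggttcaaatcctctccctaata
mt-Tm: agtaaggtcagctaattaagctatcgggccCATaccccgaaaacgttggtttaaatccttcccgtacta
mt-Tp: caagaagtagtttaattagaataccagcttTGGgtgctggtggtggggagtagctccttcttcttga
mt-Te: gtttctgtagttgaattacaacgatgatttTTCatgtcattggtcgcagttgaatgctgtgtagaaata
mt-Th: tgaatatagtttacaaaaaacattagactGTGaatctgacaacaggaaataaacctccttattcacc

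Every tRNA gene is 59 to 75 nt long and therefore shorter than a 76-base read. A read aligned over its full length reaches past a tRNA gene into a neighbour, so these values cannot separate mature tRNA from uncut precursor. The mRNA genes are 204 to 1824 nt long and the rRNA genes 955 and 1582 nt. Of the mRNA genes, 12 have the plus-strand sequence (transcribed from the heavy strand) and only mt-Nd6 has the minus-strand sequence; of the tRNA genes, 14 are plus and 8 are minus. The kit keeps strand, but the strand setting of the counting is unknown here, so reads of mt-Nd6 and of the 8 minus-strand tRNA genes cannot be told apart from antisense precursor.

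Among the mRNA genes, mt-Atp8 and mt-Atp6, which encode membrane subunits of ATP synthase, overlap by 43 nt on one strand and lie on a shared transcript. The sequence of mt-Atp8 (chrM:7766-7969, plus strand) is shown because its level relative to mt-Atp6 differed between sets of libraries, and the capitals mark the bases that also belong to mt-Atp6.
mt-Atp8: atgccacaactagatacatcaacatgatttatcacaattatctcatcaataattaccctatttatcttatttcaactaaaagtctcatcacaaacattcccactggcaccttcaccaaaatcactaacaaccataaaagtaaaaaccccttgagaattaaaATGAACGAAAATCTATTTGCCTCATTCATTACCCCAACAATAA

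Part of the mitochondrial genome also exists as a block of 7 unprocessed pseudogenes on chromosome 1 (chr1:24611535-24616197, minus strand, GRCm38). Over 681 aligned bases mt-Co2 and its copy Gm28661 had 0 differing bases, and the same held for mt-Atp6 and Gm10925 (678 bases), mt-Co3 and Gm28437 (783 bases) and mt-Nd4l and Gm10222 (294 bases). The first 60 bases of mt-Nd3 (chrM:9459-9518, plus strand) and of its copy Gm28438 (chr1:24613060-24613119, minus strand) hold the 1 difference found over 345 aligned bases, T3C, counted from the first base of mt-Nd3 and shown in capitals.
mt-Nd3, first bases: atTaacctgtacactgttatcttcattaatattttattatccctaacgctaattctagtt
Gm28438, first bases: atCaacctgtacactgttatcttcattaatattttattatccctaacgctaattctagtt

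Stretches of 76 bases that occur exactly in a nuclear transcript made up 99.5% of mt-Co2, 99.5% of mt-Atp6, 99.9% of mt-Co3, 97.8% of mt-Nd3 and 98.7% of mt-Nd4l. The share was 61.5% for mt-Nd4 and 39.4% for mt-Co1, 5.61% for mt-Nd2 and 1.54% for mt-Nd5. It was 0% for mt-Nd1, mt-Nd6, mt-Cytb, mt-Atp8 and both rRNA genes. Only annotated transcripts were searched. mt-Atp8 lies between mt-Co2 and mt-Atp6, and the chromosome 1 sequence between their copies was not covered. Its 0% therefore does not show that it lacks a nuclear copy. The labels do not tell how the authors placed reads with several matches. Values of the genes with high shares, and of mt-Atp8, are uncertain for that reason.

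Some mitochondrial genes were low in the table of MII oocytes and late 2-cell embryos, for a cause that was not tested. There mt-Co2, a subunit of cytochrome c oxidase, stood at 10.7 to 30.9 FPKM in all 4 libraries, against 1804 to 2530 FPKM in the 8 libraries of 2-cell embryos in the PR-DUB and KDM6B table (FPKM are mapped fragments scaled to gene length and to the library's total). Relative to mt-Co1 of the same library, mt-Co2 was 124-fold lower in the late 2-cell libraries than in those 8, and mt-Atp6, mt-Tk, mt-Atp8, mt-Td, mt-Co3 and mt-Nd4l were 66.0-, 37.7-, 29.3-, 24.7-, 23.4- and 22.04-fold lower. mt-Nd3, with 97.8% shared, was 2.52-fold lower. Whether the order follows the shared sequence was not tested, and the 0% of mt-Atp8 counts annotated nuclear transcripts only. The nuclear copy Gm10925 was low in the same 4 libraries as well, at 15.7 to 47.1 FPKM against 2151 to 2443 FPKM in the 8. FPKM levels are therefore tested only within a table, and shares and ratios set side by side across tables are descriptions without a test. In these, mt-Co2, mt-Atp6, mt-Atp8, mt-Co3, mt-Nd4l, mt-Tk and mt-Td of the MII and late 2-cell table are uncertain.

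From the smallest steps of the deposited values, the mapped fragments per library came to 11.6 to 20.6 M (M, mega). Summed oocyte markers stood at 3758 and 3901 FPKM in MII oocytes and at 76.0 to 773 FPKM in embryos, and summed 2-cell markers were 145 to 483 FPKM in 2-cell libraries. Of 12 cumulus and granulosa cell markers, 0 reached 1 FPKM in MII oocytes and 1 did in embryos. Structural RNAs held 1.47% and 4.62% of summed FPKM in MII oocytes and 20.9 to 33.6% in embryos, and a change of that size shifts the FPKM of every other gene. Gene-level Kdm6b was 14590 and 14740 FPKM in KDM6B CTR and 14240 and 9809 FPKM in KDM6B OE 2-cell libraries, so it does not separate OE from CTR there. In PR-DUB CTR 2-cell libraries it was 21.1 and 23.1 FPKM. At the 4-cell stage it was 571 and 401 FPKM in KDM6B CTR and 597 and 547 FPKM in KDM6B OE libraries. PR-DUB CTR 4-cell libraries had 5.31 and 5.24 FPKM. Kdm6b RNA was thus far higher in KDM6B CTR than in PR-DUB CTR embryos, for a cause that was not tested. Bap1, the catalytic subunit of PR-DUB, was 6.02 and 6.20 FPKM in PR-DUB CTR and 10.6 and 8.81 FPKM in PR-DUB OE 4-cell libraries, and 18.3 and 16.1 against 22.02 and 20.3 FPKM at the 2-cell stage. Eed was 28.5 and 33.1 FPKM in CTR and 22.7 and 26.9 FPKM in matKO libraries, a value that also counts reads outside any deleted exons and RNA from the other parent's allele. RNA of pooled embryos cannot tell fewer cells, or fewer mitochondria, from less RNA in each.

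The mitochondrial genes held 9.51 to 25.6% of summed FPKM per library, with a median of 21.3%. As a share of implied fragments, which gives long genes more weight, they held 4.28 to 19.2%. The 2 rRNA genes made up most of it. The 12S gene mt-Rnr1 stood at 33750 to 54100 FPKM and the 16S gene mt-Rnr2 at 34720 to 54920 FPKM in the 16 PR-DUB and KDM6B libraries. The mean rRNA level per length was 14.5 to 24.2 times the mean mRNA level in those libraries.

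**Figure D1:**
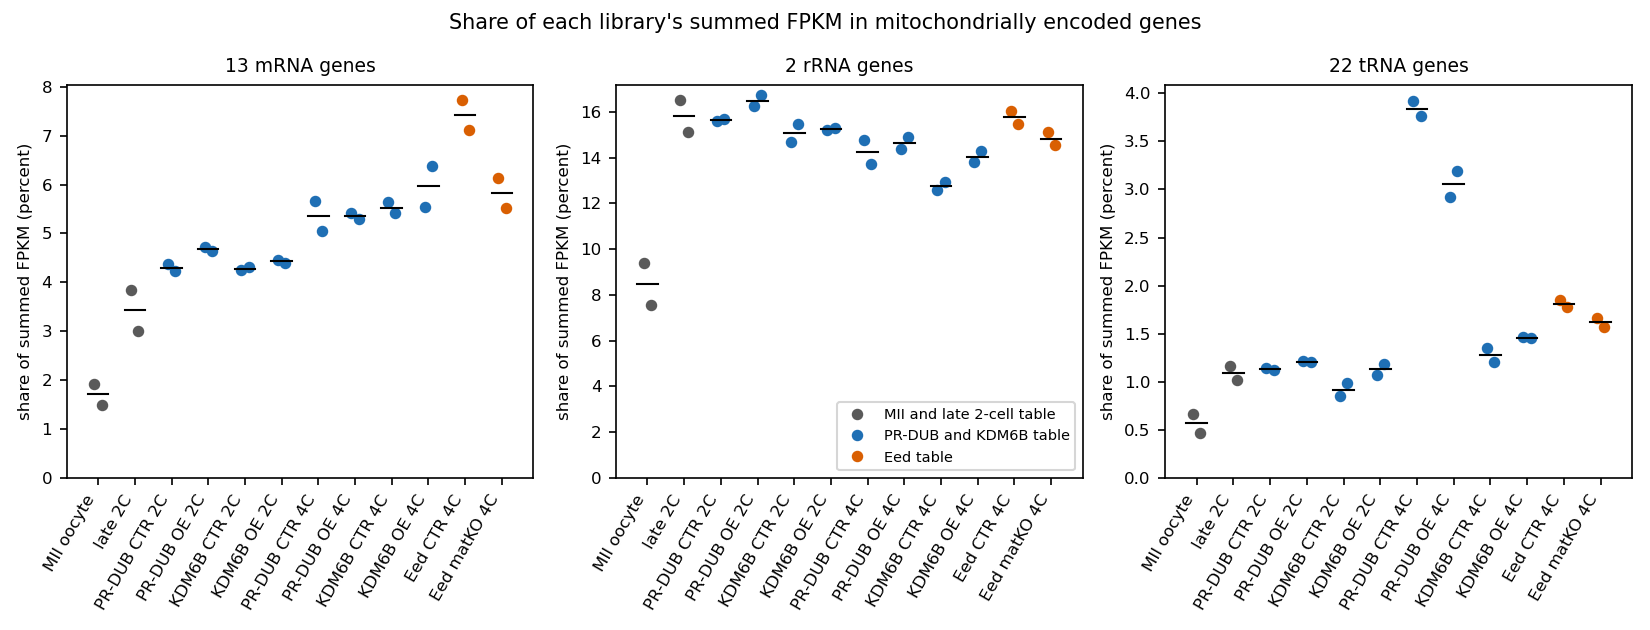
Share of each library's summed FPKM, in percent, held by the 13 mRNA, the 2 rRNA and the 22 tRNA genes; points are libraries, lines are group means and colours are the 3 deposited tables. The tRNA share is 3.77 and 3.92% in PR-DUB CTR 4-cell and 2.93 and 3.19% in PR-DUB OE 4-cell libraries, and 0.462 to 1.85% in all others.

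Within the mRNA pool the largest part belonged to mt-Cytb, the mitochondrial subunit of complex III, or to mt-Nd1, a core subunit of complex I. mt-Cytb made up 12.6 to 23.2% of summed mRNA FPKM in the PR-DUB and KDM6B table and 15.7 to 17.8% in the Eed table. mt-Nd1 made up 16.2 and 16.6% in PR-DUB CTR 4-cell libraries, above mt-Cytb there, and its range over all 16 libraries of the table was 9.57 to 16.6%. mt-Co3, another subunit of cytochrome c oxidase, was the smallest part in that table at 1.14 to 1.71%.

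**Figure D2:**
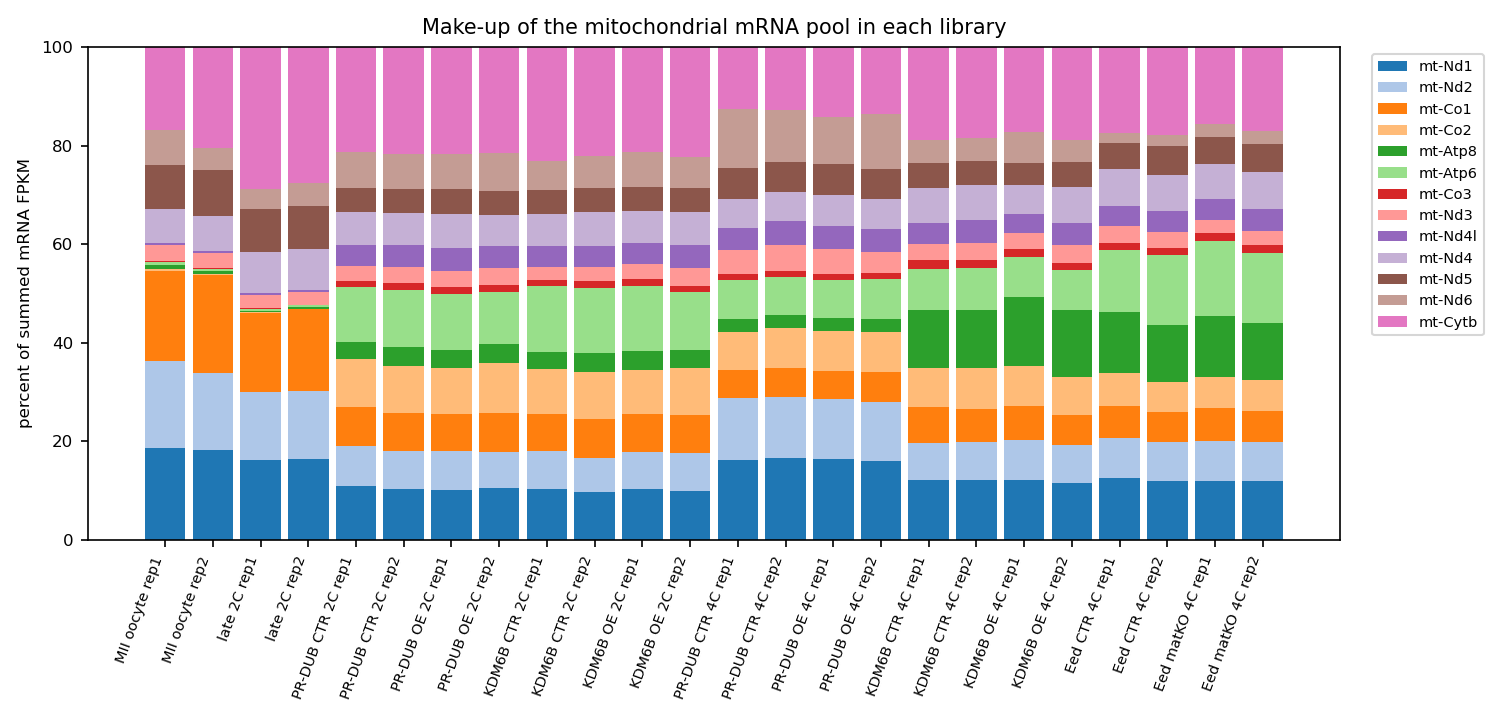
Percent of the summed FPKM of the 13 mitochondrial mRNA genes held by each gene, one stacked bar per library. mt-Co2, mt-Atp8, mt-Atp6, mt-Co3 and mt-Nd4l are each under 1% in the 4 MII and late 2-cell libraries, and mt-Nd1 and mt-Nd6 take larger shares in the PR-DUB 4-cell libraries than in the PR-DUB 2-cell libraries.

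Changes were tested with limma on log2(FPKM + 1) over all genes of a table that reached 1 FPKM in at least 2 libraries, with calls at an adjusted p under 0.05. All 37 genes passed this filter in the PR-DUB and KDM6B table and in the Eed table, and 36 in the table of MII oocytes. From MII oocyte to late 2-cell embryo the mitochondrial RNAs rose. Called higher were 34 of 36 genes tested, against 38.0% of all genes in that comparison, and 0 were called lower, against 44.6%. The median log2 change was 1.35 for the mRNA genes and 1.61 for the tRNA genes, while the median of all genes was -0.20.

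The greatest rise among the mRNA genes was that of mt-Cytb, from 1147 and 1105 FPKM to 5801 and 4765 FPKM, a 4.69-fold difference (log2 change 2.22, SE 0.17, limma adjusted p = 8.91e-05). Among complex I genes mt-Nd4 rose from 461 and 377 FPKM to 1654 and 1442 FPKM (log2 change 1.89). mt-Co1, the catalytic subunit of cytochrome c oxidase, rose from 1240 and 1067 FPKM to 3255 and 2869 FPKM (log2 change 1.41). The groups did not overlap for any of these genes. The rRNA gene mt-Rnr1 rose from 13220 and 10820 FPKM to 31930 and 30950 FPKM (log2 change 1.39), and mt-Rnr2 from 20160 and 16420 FPKM to 54730 and 55630 FPKM (log2 change 1.60). The genes not called were mt-Atp8 (adjusted p = 0.359 with limma) and mt-Co2 (adjusted p = 0.0692 with limma), both of which were low in that table. All 21 tRNA genes tested rose, with log2 changes of 0.75 to 2.19. Some rested on few implied fragments: mt-Ts1 on 2.2 and 0.57 in MII oocytes and 2.8 and 2.4 in late 2-cell libraries. For mt-Tk they were 5.0 and 2.7 in MII oocytes and 4.6 and 4.6 in late 2-cell libraries.

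The mitochondrial rise came with a rise of structural RNA, of which 9 of 9 genes tested rose, and a fall of the oocyte markers, of which 8 of 8 fell, and the part of the structural RNA in the change was not tested. Without structural RNA in the sum, the mitochondrial mRNA share was 1.57 and 1.94% in MII oocytes and 4.54 and 5.25% in late 2-cell libraries, so the groups still did not overlap.

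From the 2-cell to the 4-cell stage most mitochondrial RNAs rose in both sets of CTR embryos. In PR-DUB CTR embryos 33 of 37 genes were called higher, against 26.5% of all genes, and 0 lower, against 30.2%. In KDM6B CTR embryos 28 of 37 were called higher, against 38.0% of all genes, and 0 lower, against 26.1%. The KDM6B 2-cell libraries were sequenced on a NextSeq550 and the KDM6B 4-cell libraries belong to a set sequenced on a NextSeq550 or a HiSeq2000, so stage and sequencing set cannot be told apart there; the PR-DUB libraries of both stages belong to the first set. Structural RNA held 24.8 and 25.3% of summed FPKM in PR-DUB CTR 2-cell and 28.8 and 30.9% in PR-DUB CTR 4-cell libraries. In KDM6B CTR libraries it held 20.9 and 22.4% at the 2-cell and 30.1 and 30.4% at the 4-cell stage. Of the 8 2-cell markers 1 rose and 1 fell in PR-DUB CTR embryos (median log2 change 0.30), and 0 rose and 7 fell in KDM6B CTR embryos. Of the 8 oocyte markers 0 rose and 7 fell in PR-DUB CTR embryos, and 1 rose and 7 fell in KDM6B CTR embryos. The part of structural RNA and of these markers in the mitochondrial changes was not tested.

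With the median-ratio scaling the median log2 change over the whole table moved from -0.04 to 0.04 in PR-DUB CTR and from 0.28 to 0.03 in KDM6B CTR embryos.

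The 6 greatest rises among the mRNAs of PR-DUB CTR embryos were those of complex I genes, whose enzyme takes electrons from NADH; the other complex I gene, mt-Nd4, rose less than mt-Co3. mt-Nd1 stood at 2655 and 2336 FPKM at the 2-cell stage and at 6790 and 6319 FPKM at the 4-cell stage, a 2.63-fold rise (log2 change 1.40, SE 0.09, limma adjusted p = 1.21e-07). mt-Nd2 rose from 2011 and 1804 FPKM to 5203 and 4696 FPKM (log2 change 1.38). mt-Nd6, the only mRNA gene on the minus strand, rose from 1811 and 1666 FPKM to 5017 and 4070 FPKM (log2 change 1.38). mt-Nd3 and mt-Nd5 also rose, by 1.38 and 1.11 on the log2 scale, and mt-Nd4l and mt-Nd4 by 0.88 and 0.59. The 7 complex I genes therefore had log2 changes of 0.59 to 1.40.

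The mRNA for complex III did not follow. mt-Cytb stood at 5266 and 4962 FPKM at the 2-cell stage and at 5274 and 4845 FPKM at the 4-cell stage in PR-DUB CTR embryos, and the groups overlapped (log2 change -0.02, SE 0.11, limma adjusted p = 0.915). The 3 genes of cytochrome c oxidase rose less than the complex I genes that lead the list: mt-Co1 rose from 1949 and 1772 FPKM to 2434 and 2316 FPKM (log2 change 0.35), mt-Co2 by 0.46 and mt-Co3 by 0.68. Of the ATP synthase genes mt-Atp8 rose by 0.29, and mt-Atp6 had a log2 change of 0.21 that was not called (limma adjusted p = 0.0657). The rRNA genes rose by 0.24 (mt-Rnr1) and 0.35 (mt-Rnr2), and both calls were lost with a scaling that leaves mitochondrial and structural RNA out of the sum, which left log2 changes of 0.011 and 0.12. That scaling also lowered every mRNA change, to a median of 0.46, and left 9 of the 11 mRNA calls: mt-Co1 (0.13) and mt-Atp8 (0.063) were no longer called. Median-ratio scaling gave a median of 0.87 and 12 called mRNA genes.

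The tRNA genes rose more than the mRNA genes in PR-DUB CTR embryos, with a median log2 change of 1.71 against 0.68. mt-Tv rose from 822 and 853 FPKM to 7333 and 7579 FPKM, an 8.90-fold difference (log2 change 3.15, SE 0.12, limma adjusted p = 2.55e-09). mt-Tf rose from 147 and 129 FPKM to 1224 and 1137 FPKM, an 8.54-fold difference (log2 change 3.09). These 2 genes flank mt-Rnr1, which changed 1.18-fold. mt-Tm rose from 829 and 826 FPKM to 3954 and 3848 FPKM (log2 change 2.23), and mt-Tl1 from 1161 and 970 FPKM to 4094 and 4067 FPKM (log2 change 1.94). On the minus strand mt-Tp rose from 800 and 699 FPKM to 3309 and 3301 FPKM (log2 change 2.14), and mt-Te from 321 and 301 FPKM to 1730 and 1385 FPKM (log2 change 2.31). Of the plus-strand tRNA genes 13 of 14 were called, with a median log2 change of 1.94, and of the minus-strand ones 7 of 8, with a median of 0.89. The tRNA genes not called were mt-Ts1 and mt-Ts2, both for serine.

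Within a library, which removes scaling between libraries, the summed tRNA FPKM was 0.260 and 0.264 times the summed mRNA FPKM in PR-DUB CTR 2-cell libraries and 0.691 and 0.745 times in PR-DUB CTR 4-cell libraries. The level of mt-Tv was 1.83 and 2.00% of that of mt-Rnr1 at the 2-cell stage and 13.6 and 15.3% at the 4-cell stage. In KDM6B CTR libraries the tRNA to mRNA ratio was 0.199 and 0.229 at the 2-cell stage and 0.239 and 0.223 at the 4-cell stage, where the groups overlapped. Within their table the PR-DUB 4-cell libraries stood apart from the other 6 groups in this ratio.

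**Figure D3:**
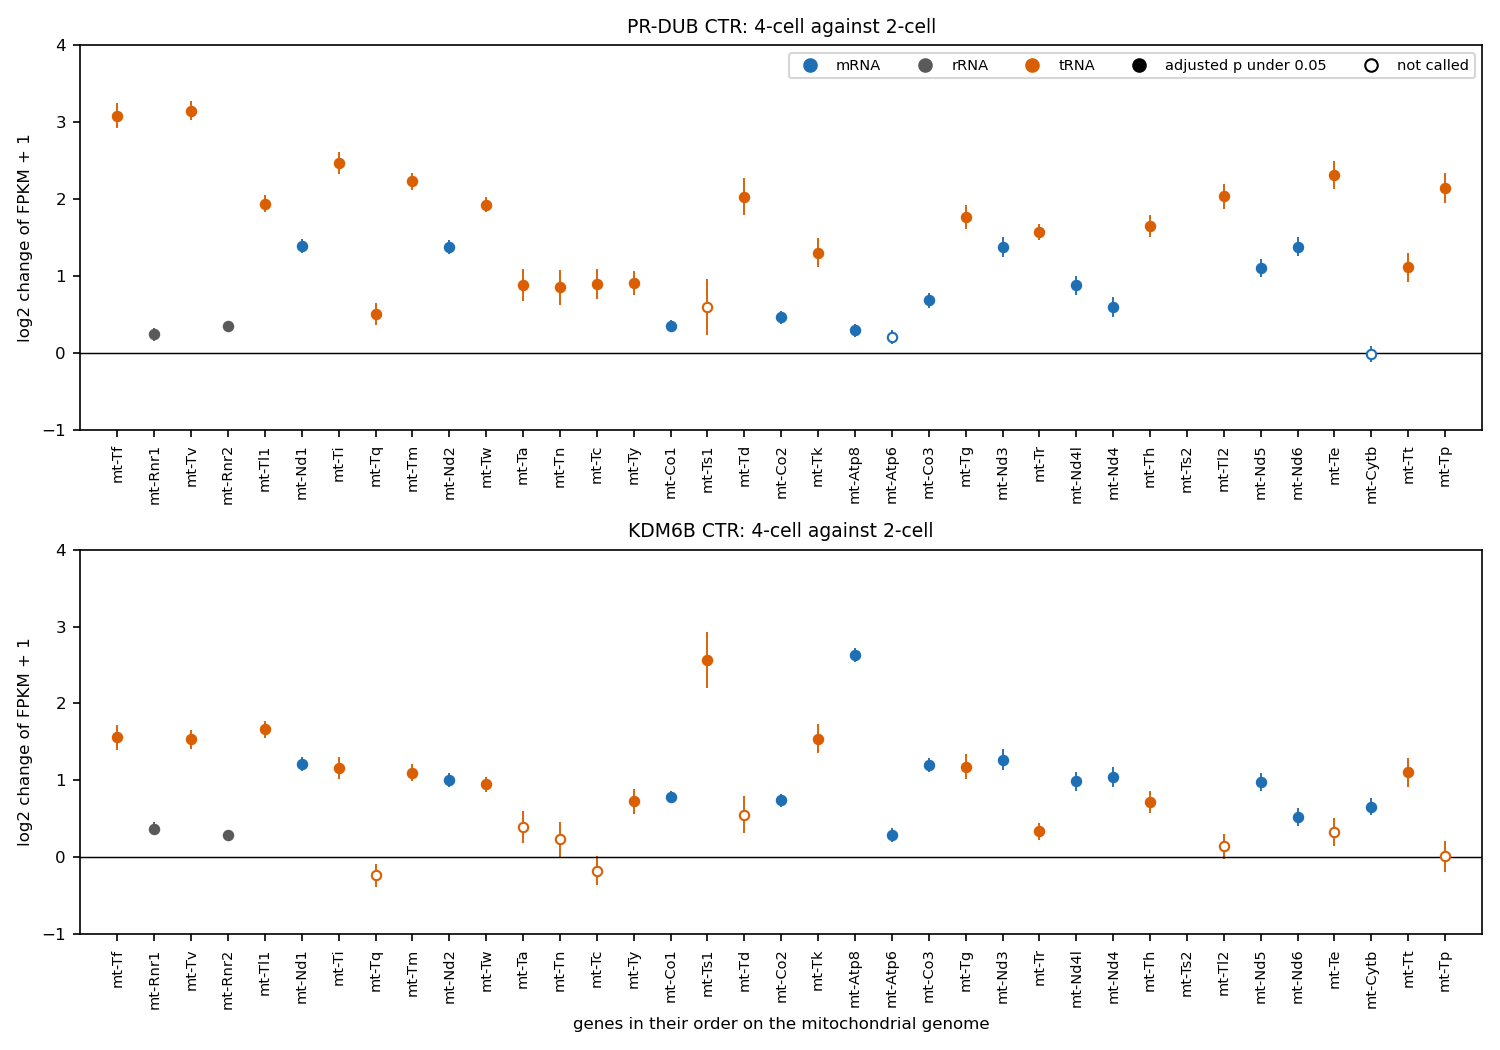
Log2 change of FPKM + 1 from the 2-cell to the 4-cell stage in PR-DUB CTR (top) and KDM6B CTR embryos (bottom) for the mitochondrial genes in genome order; points are limma estimates, bars are 1 SE, colours are the RNA classes and filled points have an adjusted p under 0.05. mt-Tv (3.15) and mt-Tf (3.09) lead the upper panel and mt-Atp8 (2.63) the lower one; mt-Ts2, at under 0.5 FPKM in most libraries, is left out.

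In KDM6B CTR embryos all 13 mRNA genes rose, with a median log2 change of 0.98. The size depended on the scaling: the median was 0.57 with the median-ratio scaling and 0.63 with the scaling without mitochondrial and structural RNA, and 10 and 11 of the 13 were called. mt-Atp6 and mt-Nd6 lost the call with both and mt-Cytb with the first. mt-Atp8 rose most, from 688 and 742 FPKM to 4344 and 4507 FPKM, a 6.19-fold difference (log2 change 2.63, SE 0.09, limma adjusted p = 2.11e-09). mt-Atp6, which shares its transcript, rose from 2680 and 2549 FPKM to 3174 and 3195 FPKM (log2 change 0.28). The placing of reads with several matches is unknown, so the values of mt-Atp8 and mt-Atp6 are uncertain. mt-Nd1 rose from 2044 and 1862 FPKM to 4487 and 4575 FPKM (log2 change 1.22), and mt-Cytb from 4620 and 4307 FPKM to 7029 and 7025 FPKM (log2 change 0.66). mt-Nd3 (1.27), mt-Co3 (1.20), mt-Nd4 (1.04), mt-Nd2 (1.01), mt-Nd4l (0.98), mt-Nd5 (0.98), mt-Co1 (0.78), mt-Co2 (0.74) and mt-Nd6 (0.52) rose as well, with the log2 changes given.

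The rRNA genes and mt-Atp6 did not keep their direction in this comparison. With the median-ratio scaling the log2 changes were -0.05 for mt-Rnr1, -0.13 for mt-Rnr2 and -0.13 for mt-Atp6, and none of the 3 was called. Of the tRNA genes 13 of 22 were called higher, among them mt-Tv, which rose from 491 and 535 FPKM to 1531 and 1437 FPKM (log2 change 1.53). mt-Tp stood at 441 and 587 FPKM at the 2-cell stage and at 577 and 454 FPKM at the 4-cell stage, and these groups overlapped. With either scaling 10 tRNA genes were called higher, mt-Tc and mt-Tq were called lower, and mt-Tr took a negative sign (-0.080 with median-ratio scaling). Of all 15055 genes 4701 were called higher and 4796 lower with the median-ratio scaling, and 4823 and 4620 with the other. Of the minus-strand tRNA genes 2 of 8 were called, and of the plus-strand ones 11 of 14.

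The difference between the PR-DUB CTR and the KDM6B CTR stage change was tested directly. It was called for 14 genes with a greater change in PR-DUB CTR embryos, against 6.84% of all genes, and for 5 with a smaller one, against 22.7% of all genes. mt-Tp had the greatest positive difference (log2 difference 2.13, SE 0.28, limma adjusted p = 0.000236), and mt-Te (1.98), mt-Tl2 (1.90) and mt-Tv (1.62) followed. The smaller changes were those of mt-Atp8 (log2 difference -2.34), mt-Ts1 (-1.97), mt-Cytb (-0.67), mt-Co3 (-0.52) and mt-Co1 (-0.43). With the median-ratio scaling, which moved the median difference of all genes from -0.32 to 0.09, the split was 26 greater and 1 smaller, with mt-Atp8 the smaller one, and mt-Co3 and mt-Co1 took positive differences of 0.085 and 0.18. Over all genes that scaling moved the split from 1030 greater and 3413 smaller to 2080 and 1749. With the scaling without mitochondrial and structural RNA it was 16 greater and 3 smaller mitochondrial genes. The summed 2-cell markers were 232 and 280 FPKM in PR-DUB CTR and 32.4 and 66.5 FPKM in KDM6B CTR 4-cell libraries; these libraries belong to different sequencing sets, and the part of either in the difference was not tested.

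The ratio of mt-Atp8 to mt-Atp6 differed between sets of libraries. It was 0.257 to 0.357 in the 12 libraries of the first sequencing set, which hold all PR-DUB and the KDM6B 2-cell embryos. It was 1.37 to 1.71 in the KDM6B 4-cell libraries, 0.802 to 0.976 in the Eed libraries and 0.612 to 1.26 in the MII and late 2-cell libraries. Within the PR-DUB and KDM6B table the first set did not overlap the KDM6B 4-cell libraries, and its 4-cell libraries (0.341 to 0.344) lay with its 2-cell libraries. The part of the sequencing set, or of the placing of reads with several matches, in the KDM6B stage change of mt-Atp8 was not tested. The ratio of mt-Nd6 to mt-Nd5, neighbours read from opposite strands, was 0.350 to 1.33 outside the first set and reached 1.94 within it, and the ranges overlapped.

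**Figure D4:**
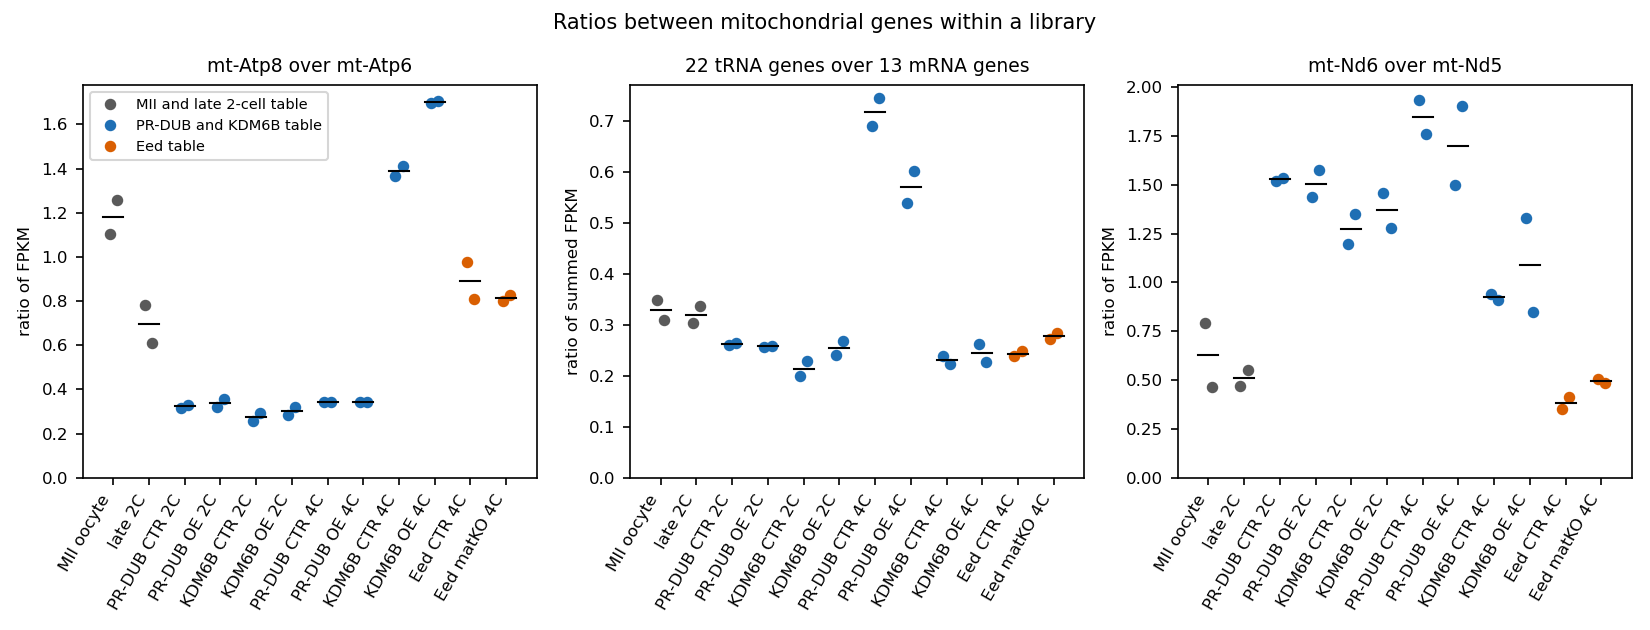
Ratios within a library of mt-Atp8 to mt-Atp6 FPKM, of summed tRNA to summed mRNA FPKM and of mt-Nd6 to mt-Nd5 FPKM; points are libraries, lines are group means and colours are the 3 deposited tables. The first ratio is at most 0.357 in PR-DUB and KDM6B 2-cell and PR-DUB 4-cell libraries, and the second is at least 0.541 only in PR-DUB 4-cell libraries.

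With PR-DUB overexpression a few tRNA genes were lower at the 4-cell stage, and no mitochondrial mRNA was called at either stage. At the 2-cell stage limma called 0 of 37 genes, against 1.18% of all genes, with 1 gene at an unadjusted p under 0.05, as were 14.1% of all genes. That gene was mt-Tf, at 147 and 129 FPKM in CTR and 209 and 174 FPKM in OE libraries (log2 change 0.46, limma adjusted p = 0.203). At the 4-cell stage 6 genes were called lower, against 3.41% of all genes, and 0 higher, against 12.3%. All 6 were plus-strand tRNA genes.

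mt-Th stood at 283 and 265 FPKM in CTR and at 173 and 147 FPKM in OE 4-cell libraries, and its log2 level fell by 0.78 (SE 0.15, limma adjusted p = 0.00558). mt-Tr for arginine stood at 713 and 670 FPKM in CTR and at 495 and 474 FPKM in OE libraries (log2 change -0.51). mt-Tw for tryptophan stood at 1044 and 971 FPKM in CTR and at 730 and 731 FPKM in OE libraries (log2 change -0.46). The CTR and OE libraries did not overlap for these genes. mt-Tl2 for leucine (log2 change -0.56), mt-Ti for isoleucine (-0.45) and mt-Tv (-0.38) were the others, and mt-Tv stood at 7333 and 7579 FPKM in CTR and 5520 and 5921 FPKM in OE libraries. The adjusted p of mt-Tv and mt-Ti with limma, 0.0486 and 0.0495, lay just under the threshold.

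The class medians at the 4-cell stage were -0.39 for the tRNA genes, with 22 of 22 below 0, and -0.06 for the mRNA genes, with 11 of 13 below 0. The 22 include mt-Ts2, which stood at only 0.388 to 0.493 FPKM in these libraries. Over all genes the median was 0.13 and 37.8% were below 0. With the median-ratio scaling the median of all genes was 0.00 and those of the classes were -0.60 and -0.26. The summed tRNA FPKM was 0.541 and 0.603 times the summed mRNA FPKM in OE libraries, below the 0.691 and 0.745 of CTR libraries. The count of 6 fell when any single library was left out, and so did the calls over all genes. The median log2 change of the 37 genes was -0.20 with all libraries. It was -0.16 and -0.26 without CTR replicate 1 and 2, and -0.20 and -0.21 without OE replicate 1 and 2. The summed 2-cell markers were 342 FPKM in OE replicate 1 and 92.6 FPKM in OE replicate 2, and 232 and 280 FPKM in the CTR libraries; their part was not tested. With the median-ratio scaling 16 genes were called lower, namely 13 tRNA genes, mt-Co1, mt-Co3 and mt-Rnr2. Over all 15055 genes that scaling moved the lower calls from 513 to 951. mt-Th was the only one of the 6 called under every alternative tried. The CTR 4-cell libraries also enter the stage comparison, so the stage rise and the lower OE level of these genes share samples.

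**Figure D5:**
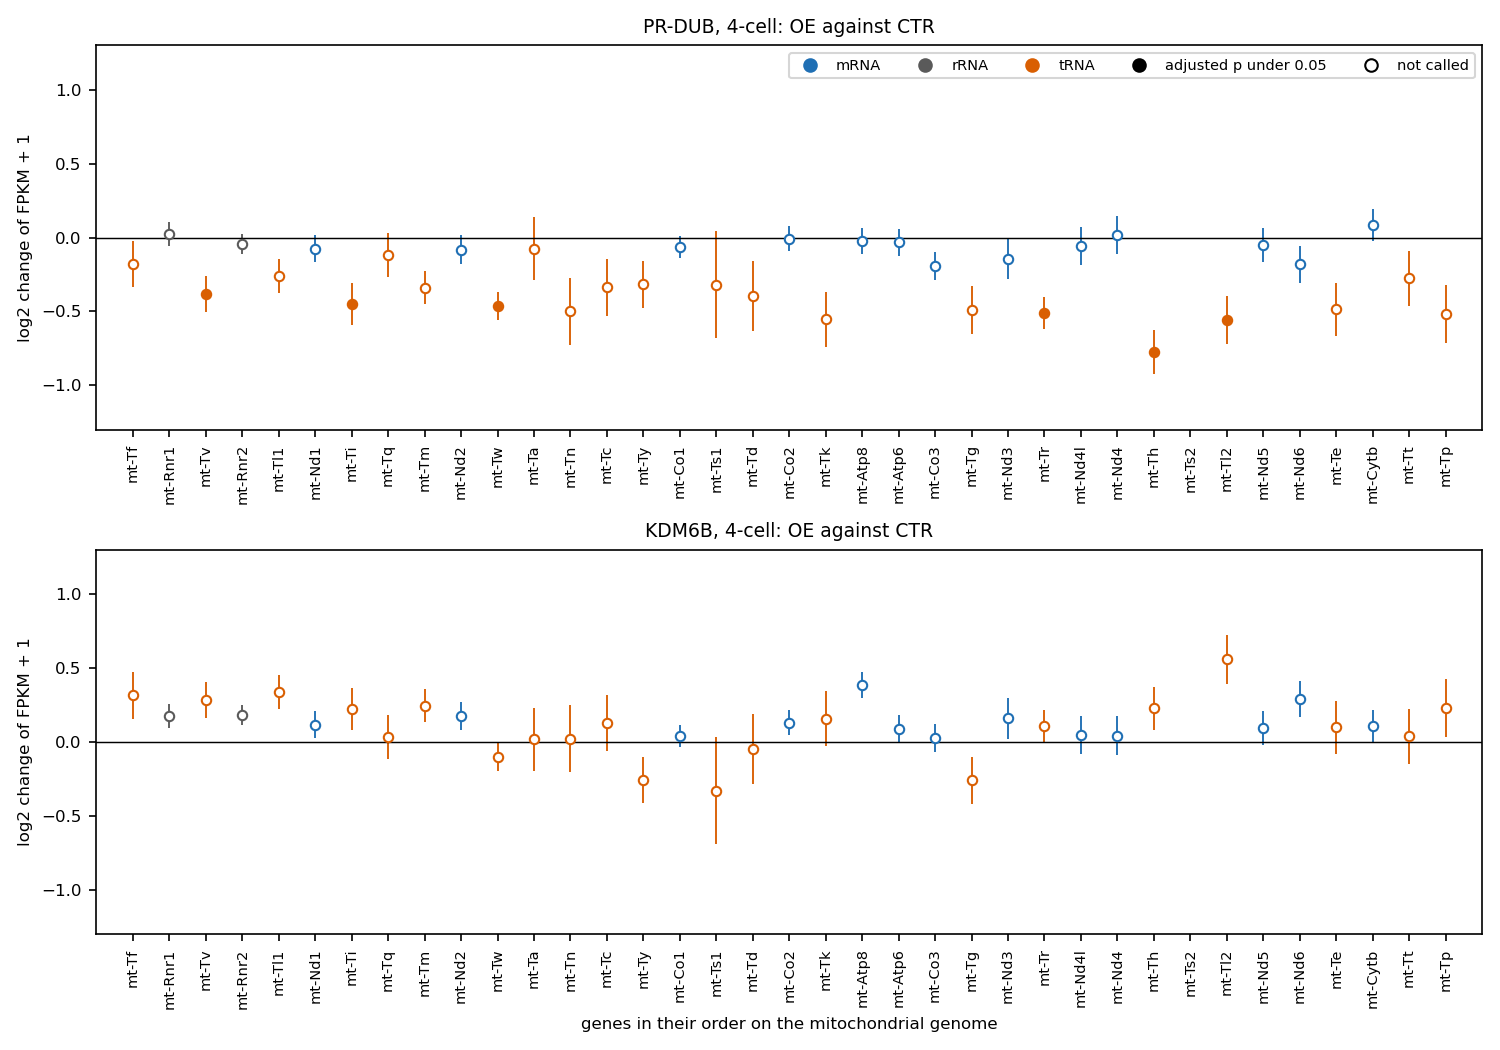
Log2 change of FPKM + 1 between OE and CTR embryos at the 4-cell stage for PR-DUB (top) and KDM6B (bottom), in genome order; points are limma estimates, bars are 1 SE, colours are the RNA classes and filled points have an adjusted p under 0.05. The 6 filled points are tRNA genes in the upper panel, from -0.38 to -0.78; mt-Ts2 is left out.

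KDM6B overexpression gave 0 calls among the 37 genes by limma at either stage, against 0.757% of all genes at the 2-cell stage and 0.359% at the 4-cell stage. At an unadjusted p under 0.05 there were 16 genes at the 2-cell stage, where 14.4% of all genes were, and 7 at the 4-cell stage, where 11.6% were. The 16 became 9 with the median-ratio scaling. At the 2-cell stage the tRNA genes had a median log2 change of 0.43 and the mRNA genes of 0.16; mt-Tv stood at 491 and 535 FPKM in CTR and 645 and 848 FPKM in OE libraries (log2 change 0.53, limma adjusted p = 0.0647). At the 4-cell stage mt-Atp8 stood at 4344 and 4507 FPKM in CTR and 5474 and 6084 FPKM in OE libraries (log2 change 0.38, limma adjusted p = 0.0929). The differences of these genes did not pass the adjustment over all genes. Without KDM6B OE 2-cell replicate 1 the count at the 2-cell stage was 2.

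Differences between OE effects were tested as well. Between the 4-cell and the 2-cell stage the PR-DUB effect differed for 0 of 37 genes by limma, against 1.74% of all genes, with 11 at an unadjusted p under 0.05 (17.5% of all genes), of which mt-Tw was nearest to the threshold (log2 difference -0.57, limma adjusted p = 0.0559). For the KDM6B effect it was 0 genes by limma against 0.139% of all genes, with 4 at an unadjusted p under 0.05 (13.2% of all genes). Between the PR-DUB and the KDM6B effect the 2-cell stage gave 0 genes by limma against 1.72% of all genes, with 6 at an unadjusted p under 0.05 (17.8% of all genes); without KDM6B OE replicate 1 it was 1. At the 4-cell stage 6 tRNA genes had a lower PR-DUB effect, against 2.03% of all genes: mt-Tl2 (log2 difference -1.12), mt-Th (-1.003), mt-Tv (-0.67), mt-Tr (-0.62), mt-Tl1 (-0.60) and mt-Tm (-0.58). This count was 1 without PR-DUB CTR replicate 1 or OE replicate 2, 2 without PR-DUB CTR replicate 2, PR-DUB OE replicate 1 or KDM6B CTR replicate 2, and 0 when only the 8 libraries concerned were fitted.

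Maternal loss of Eed gave 0 calls among the 37 genes by limma, against 0.0171% of all genes, with 14 at an unadjusted p under 0.05, as were 8.26% of all genes. All 13 mRNA genes had negative log2 changes, as had 48.9% of all genes, with a median of -0.36 where that of all genes was 0.0069. mt-Nd3 stood at 1823 and 1597 FPKM in CTR and 1099 and 1149 FPKM in matKO libraries (log2 change -0.60, limma adjusted p = 0.331). mt-Cytb stood at 9458 and 8786 FPKM in CTR and 6580 and 6562 FPKM in matKO libraries (log2 change -0.47). The mitochondrial mRNA share of summed FPKM was 7.11 and 7.74% in CTR and 5.52 and 6.14% in matKO libraries. The tRNA median was -0.16 and the rRNA median -0.10 in log2 change.

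mt-Ts2, the serine tRNA gene that shares 1 base with mt-Tl2, had a pattern of its own. It stood at 81.0 to 147 FPKM in 5 libraries and at 0.280 to 0.493 FPKM, under 1 implied fragment, in the other 19. The 5 were late 2-cell replicate 1, PR-DUB CTR 2-cell replicate 1, KDM6B OE 4-cell replicate 1, Eed CTR replicate 2 and Eed matKO replicate 1, and in each case the other library of the group was among the low ones. Its sequence (chrM:11613-11671, plus strand) is printed because it is the shortest of the 37, with the shared base in capitals.
mt-Ts2: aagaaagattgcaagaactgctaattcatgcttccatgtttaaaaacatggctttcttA

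Nuclear genes with roles in mitochondria were counted for comparison, from lists of known factors. Of 71 tested nuclear subunits of oxidative phosphorylation, which join the mitochondrial subunits in the same complexes, 47 rose and 4 fell between the stages in PR-DUB CTR embryos (median log2 change 1.25), where 26.5% of all genes were called higher and 30.2% lower. In KDM6B CTR embryos 64 rose and 0 fell (median 1.84), where the shares of all genes were 38.0% and 26.1%. Examples are Cox7c (4.68 and 4.04) and Uqcrb (3.94 and 3.88). From MII oocyte to late 2-cell embryo 18 of 72 rose and 40 fell, where 38.0% of all genes were called higher and 44.6% lower, while 34 of 36 mitochondrial genes rose. In PR-DUB OE 4-cell embryos 23 of 71 rose and 0 fell, where 12.3% of all genes were called higher and 3.41% lower, among them Ndufa13 (2.02), Cox5b (1.97) and Ndufc2 (1.97), with a list median of 0.74 against 0.13 over all genes, while 0 of 13 mitochondrial mRNA genes were called. Of these 71 genes 14 rose with the median-ratio scaling, where 1193 of all 15055 genes were called higher.

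Of the mitochondrial transcription factors, Tfam, which packages and starts transcription of mitochondrial DNA, stood at 0.610 and 0.457 FPKM in PR-DUB CTR 2-cell and 3.84 and 2.67 FPKM in PR-DUB CTR 4-cell libraries (log2 change 1.46, limma adjusted p = 0.000696). Mterf3 (2.70) and Tefm (1.44) also rose there, making 3 of 8 tested, where 26.5% of all genes were called higher. In KDM6B CTR embryos 8 of 8 rose, where 38.0% of all genes were called higher. The greatest rises were those of Tefm (2.46), Polrmt (2.05), the mitochondrial RNA polymerase, Tfam (2.04) and Mterf4 (1.67). With either scaling 6 of 8 were called. Of all 15055 genes 9497 were called in either direction with the median-ratio scaling and 9443 with the scaling without mitochondrial and structural RNA. From MII oocyte to late 2-cell embryo 3 of 8 rose, including Tfb2m (1.92) and Polrmt (1.91), and 4 fell, including Mterf4 (-3.93) and Tfam (-1.82). These counts lie near the shares of all genes, of which 38.0% were called higher and 44.6% lower. In PR-DUB OE embryos 1 of 8 was called at each stage. Mterf3 was higher at the 2-cell stage (1.65), where 0.983% of all genes were called higher. Tfb2m was lower at the 4-cell stage (-0.68), where 3.41% of all genes were called lower.

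Among 21 genes for mitochondrial RNA processing and decay, 4 rose and 1 fell in PR-DUB OE 4-cell embryos, where 12.3% of all genes were called higher and 3.41% lower. The counts were 2 and 1 with the median-ratio scaling, where 1193 of all 15055 genes were called higher and 951 lower. With the scaling without mitochondrial and structural RNA they were 3 and 0, where 1728 were called higher and 450 lower. Rexo2, an exonuclease that degrades short RNAs in mitochondria, stood at 2.42 and 4.15 FPKM in CTR and 24.2 and 21.9 FPKM in OE libraries (log2 change 2.52, SE 0.24, limma adjusted p = 0.000319). The groups were far apart at these low levels, and Rexo2 stood at 5.44 and 6.80 FPKM in CTR and 17.4 and 12.3 FPKM in OE libraries at the 2-cell stage, a difference whose call was lost with the median-ratio scaling. When only the libraries of that 2-cell comparison were fitted, 4 of all genes were called instead of 177. Pnpt1, an exonuclease of the mitochondrial degradosome, had a log2 change of 1.11 and Fastk one of 0.92, and Trmt10c, a subunit of the nuclease that cuts tRNA 5′ ends, fell from 38.0 and 38.7 FPKM to 20.1 and 21.9 FPKM (log2 change -0.84). Between the stages 4 rose and 6 fell in PR-DUB CTR embryos, among them Angel2 (-3.75) and Lrpprc (2.42). Over all genes 26.5% were called higher and 30.2% lower in that comparison. In KDM6B CTR embryos 7 rose and 3 fell, where 38.0% of all genes were called higher and 26.1% lower. With either scaling 5 rose and 6 fell in KDM6B CTR embryos. Of all 15055 genes 4701 were called higher and 4796 lower there with the median-ratio scaling, and 4823 and 4620 with the other. From MII oocyte to late 2-cell embryo 3 of 19 rose and 11 fell, where 38.0% of all genes were called higher and 44.6% lower.

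Of 12 genes for mitochondrial DNA replication, 4 rose and 4 fell between the stages in PR-DUB CTR embryos. Over all genes 26.5% were called higher and 30.2% lower there. The largest changes were those of Rrm2b (-3.58), a ribonucleotide reductase subunit, and Top1mt (3.08), the mitochondrial topoisomerase. In KDM6B CTR embryos 6 rose and 2 fell, where 38.0% of all genes were called higher and 26.1% lower, again with Rrm2b (-3.31) and Top1mt (3.18) in front. In PR-DUB OE 4-cell embryos 1 of the 12 was called, where 12.3% of all genes were called higher. It was Polg, the catalytic subunit of the mitochondrial DNA polymerase, which was higher (1.35). Of the 7 nuclear pseudogene copies 5 rose in PR-DUB CTR and 7 in KDM6B CTR embryos, where 26.5% and 38.0% of all genes were called higher. In either OE comparison at the 4-cell stage 0 were called, where 15.7% (PR-DUB) and 0.359% (KDM6B) of all genes were. With the median-ratio scaling 3 were called lower for PR-DUB, where 951 of all 15055 genes were. Reads of these copies cannot be told apart from those of the mitochondrial genes they match.

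Likeness to mt-Co1 was measured as Pearson's r of log2(FPKM + 1) over the 8 group means of the PR-DUB and KDM6B table, as a description. The genes outside the mitochondrial genome with the highest r were Gm28661 (0.999), itself a copy of mt-Co2, Dimt1 (0.992), Gm12616 (0.992), Tfg (0.991) and Gm6793 (0.990). Among the mitochondrial genes mt-Nd4 was nearest (0.986) and mt-Tq farthest (-0.125). The 8 means share a table and its scaling.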

How the data were processed

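RNA was sequenced from 24 libraries, 2 in each of 12 groups, with a stranded SMART-Seq low-input kit and paired reads of 76 bases, per the labels' protocols. The deposited values are FPKM. The submitters' processing notes name StringTie 1.3.3b, Trim Galore 0.6.5, the build mm10 and HISAT2 2.1.0, with no further settings. Not given in the sources used here are the annotation release, the placing of reads with several matches and the strand setting. The values come in 3 tables, fitted separately: PR-DUB with KDM6B, Eed, and MII with late 2-cell.

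Groups came from the labels. Values were taken as log2(FPKM + 1) for genes with at least 1 FPKM in at least 2 libraries and tested, two-sided, with limma 3.58.1 in R 4.3.3 (moderated test with a trend, groups as means that share 1 spread, Benjamini-Hochberg over all tested genes, called at an adjusted p under 0.05). An exact permutation test of 2 against 2 libraries cannot go below 0.333. Groups of 2 libraries therefore often fail to overlap without any difference, and the share of all genes without overlap was not counted. The code was checked on simulated data. Mapped fragments were inferred from the steps of low values. Alternatives were other pseudocounts, no filter, a median-ratio scaling, a scaling without mitochondrial and structural RNA, no trend, a replicate block, only the libraries of the contrast, and leaving out each replicate. The test of the difference between the CTR stage changes was added after seeing the data.

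The members and lists were chosen with earlier results of these data known. Named were all mitochondrial mRNA and rRNA genes, the 4 tRNA genes with the highest mean FPKM and any called, and up to 4 called genes with the largest change from each other list; mt-Ts2 was chosen after its values were seen. The lists were nuclear copies, transcription, RNA processing and decay, DNA replication, oxidative phosphorylation subunits, structural RNAs and markers of oocytes, 2-cell embryos and cumulus cells. Same-numbered libraries of 2 groups did not deviate together (correlations of -0.062 to 0.037), so they were not treated as pairs. These correlations cannot tell if such libraries were collected together.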

Additional observations from a re-analysis of the deposited data

Results flagged for a closer look

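The change from the 2-cell to the 4-cell stage differed between PR-DUB CTR and KDM6B CTR embryos, by a limma test of the difference itself, for 19 mitochondrial genes. It was greater in PR-DUB CTR embryos, as a log2 difference, for mt-Tp (2.13), mt-Te (1.98), mt-Tl2 (1.90), mt-Tv (1.62), mt-Tf (1.53), mt-Td (1.48), mt-Ti (1.31), mt-Tr (1.24), mt-Tm (1.13), mt-Tc (1.07), mt-Tw (0.98), mt-Th (0.93), mt-Nd6 (0.86) and mt-Tq (0.74). It was smaller for mt-Atp8 (-2.34), mt-Ts1 (-1.97), mt-Cytb (-0.67), mt-Co3 (-0.52) and mt-Co1 (-0.43). The KDM6B 4-cell libraries belong to another sequencing set than the other 3 groups, so the experiment and the set cannot be told apart.

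The effect of overexpression at the 4-cell stage was lower for PR-DUB than for KDM6B, by the same kind of test, for mt-Tl2 (-1.12), mt-Th (-1.003), mt-Tv (-0.67), mt-Tr (-0.62), mt-Tl1 (-0.60) and mt-Tm (-0.58).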

How the results depend on the processing

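Without single replicates, the number of mitochondrial genes called was 30 to 34 in the PR-DUB CTR stage change, 27 to 28 in KDM6B CTR, 30 to 36 from MII oocyte to late 2-cell embryo and 18 to 20 for the difference between the CTR stage changes. Under the other alternatives the ranges were 28 to 34, 22 to 28, 32 to 36 and 13 to 27, and the split of the last went from 14 greater and 5 smaller to 26 and 1 with median-ratio scaling. The 6 calls of PR-DUB OE at the 4-cell stage became 3 with no filter, 16 with median-ratio scaling, 2 without a trend and 1 to 3 without single replicates. The 6 calls of the PR-DUB minus KDM6B effect at the 4-cell stage became 1, 13 and 2 under the same settings, 0 with only the libraries of the contrast and 1 to 5 without single replicates. With the replicate block that count was 1 and the PR-DUB OE 4-cell count was 4; the block moved no other count of mitochondrial genes by over 1.5 times, but gave 2 calls over all genes in place of 177 for PR-DUB OE at the 2-cell stage. The 0 calls of the PR-DUB effect between stages became 1 with a pseudocount of 10, 6 with median-ratio scaling, 1 with the scaling without mitochondrial and structural RNA and 1 with only the libraries of the contrast. The 0 of Eed became 13 with no filter, where most residual variances were exactly 0. The 0 of KDM6B OE at the 2-cell stage became 0 to 2, and of the PR-DUB minus KDM6B effect there 0 to 1, without single replicates. The cause of these moves was not tested.

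The median mRNA share of 4.89% became 6.80% without structural RNA and 2.93% as a share of fragments; the rRNA share of 15.0% became 20.5% and 11.7%, and the tRNA share of 1.21% became 1.68% and 0.0530%. In the KDM6B CTR stage change, median-ratio scaling and the scaling without mitochondrial and structural RNA gave -0.13 and -0.071 for mt-Atp6, -0.13 and -0.072 for mt-Rnr2, and -0.080 and -0.018 for mt-Tr, and median-ratio scaling gave -0.048 for mt-Rnr1. It gave 0.18 for mt-Co1 and 0.085 for mt-Co3 in the difference between the CTR stage changes. Over the called genes, 1422 alternatives kept direction and call, 147 kept only the direction and 9 turned it.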
